A study of Hydra vulgaris with 30 samples.

Results

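The regenerating tips of *Hydra* polyps kept in the SETD8 inhibitor UNC0379 were compared at 12 and 0 hours postamputation (hpa), in 6 of the 30 RNA-seq libraries of the series. All libraries that the labels give as UNC0379 tips of these time points were used, 3 of 12 hpa and 3 of 0 hpa. All were made from tips of decapitated polyps of the Ind-Pune strain, kept as a clonal culture. The dose of UNC0379 is 150 µM in the treatment label, while the treatment protocol has the unit as mM. Tips of polyps kept in 0.2% DMSO, the vehicle, were sampled at the same time points, again with 3 libraries of 12 hpa and 3 of 0 hpa, and were the vehicle background for each change. The DMSO comparison shares no library with the UNC0379 comparison. In the head regeneration assays of the study, polyps were in inhibitor for 8 h before the cut and stayed in it afterwards, and the same regime is not stated for the RNA. If it was used, tips of 12 hpa had also been in UNC0379 for longer than tips of 0 hpa. With no uncut polyps in UNC0379 analysed here, time after the cut and time in inhibitor cannot be told apart. Whether replicate libraries were made from separate cultures is not stated. The p-values therefore measure the spread between replicate libraries only, which was estimated over all 30 libraries of the series.

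SETD8 (KMT5A) adds 1 methyl group to lysine 20 of histone H4. The resulting mark, H4K20me1, is placed on chromatin during the cell cycle and is also found over the bodies of genes. *Hydra* rebuilds a head from the cut end of the body column. The wound is first closed by epithelial cells, and a new organizer is then set up at the tip, in which canonical Wnt signalling acts and Brachyury, a T-box transcription factor, is switched on. Proteins of the dickkopf family are secreted, and several of its members block Wnt signalling by binding the LRP co-receptor, although dickkopf-related protein 3 is a divergent member of the family in vertebrates.

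Each library was counted from tags at the 3′ ends of polyadenylated RNA. Between 496200 and 778487 reads per library were assigned to a transcript at 12 hpa and between 499958 and 648321 at 0 hpa, and 1 count was worth 1.31 to 2.06 CPM. Levels are given in this CPM throughout, counts scaled to a fixed library total over the tested transcripts after TMM normalization. In the HTSeq summary lines, 26.1% to 57.1% of the reads were not aligned at 12 hpa and 36.7% to 50.2% at 0 hpa. One library, replicate 3 of 0 hpa, stood apart from its group. The root mean square difference in log2 CPM over the transcripts tested was 0.895 and 0.99 between this library and replicates 1 and 2 of 0 hpa, which differed from each other by 0.595. The same measure was 0.666 to 0.754 between the 12 hpa libraries and replicates 1 and 2 of 0 hpa. It was thus farther from its own group than the rest of that group was from the 12 hpa libraries. Its own difference from the 12 hpa libraries was 0.965 to 1.03. The 12 hpa libraries differed among themselves by 0.502 to 0.561. The same library also stood out in the reads that could not be given to a single feature, counted per assigned read. It had the most of the UNC0379 libraries of these times, at 1.203. The others had 1.123 and 1.101 in replicates 1 and 2 and 1.07 to 1.091 at 12 hpa. The DMSO libraries of 0 hpa had 1.179, 1.202 and 1.207, so that its value lay among theirs. Those of DMSO 12 hpa had 1.159, 1.155 and 1.139. The part of this measure in the results below was not tested, nor whether the library resembled DMSO tips in its transcript levels. The numbers of UNC0379 calls and of called differences are given below with and without the library. So are the UNC0379 changes of transcripts given by name or identifier. Other counts, such as those by fold, abundance, time and overlap with DMSO, are with the library only.

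Gene names could be given to few transcripts. None of the 94298 transcript and gene model identifiers was found in the gene table used here, so no pathway, cell type or tissue marker could be checked. The genome browser panels of the study pair 16 loci with both 1 legible identifier and 1 name, and 3 of these had enough counts to be tested, those named Brachyury protein-like, dickkopf-related protein 3 and NHL repeat-containing protein 2. The names are as those panels give them and were not checked against a sequence.

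Adjusted p-values come from edgeR's quasi-likelihood test with Benjamini-Hochberg adjustment, except where DESeq2, limma-voom or a range over alternatives is named. Of 5046 transcripts tested, 224 (4.44%) differed between 12 and 0 hpa under UNC0379 at an adjusted p under 0.05. Of these, 100 (1.98% of those tested) rose and 124 (2.46%) fell. The changes were large in most of them. Over all 224, 205 changed more than 2-fold, 64 more than 4-fold and 15 more than 8-fold, and 12 of the last 15 were rises. The transcripts that rose had a median log2 fold change of 1.79 (0.59 to 5.10), with a median level of 68.6 CPM at 12 hpa and 19.9 CPM at 0 hpa. The transcripts that fell had a median log2 fold change of -1.52 (-3.81 to -0.56), with a median level of 30.4 CPM at 12 hpa and 81.1 CPM at 0 hpa. Over all transcripts tested the median log2 fold change was -0.03, with median levels of 33.7 CPM at 12 hpa and 34.0 CPM at 0 hpa. In 221 of the 224 the 3 libraries of 12 hpa did not overlap the 3 of 0 hpa, and the other 3 were among those that fell. Of all transcripts tested, 20.9% had libraries that did not overlap, 9.39% higher and 11.5% lower at 12 hpa. In bulk tips, fewer cells of a type and less RNA per cell cannot be told apart.

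A single transcript that rose had 0 counts in the 3 libraries of 0 hpa. It had 3, 6 and 5 counts in the 12 hpa libraries, which is at least 4.27-fold higher than the limit of 3 counts over the 0 hpa group. Its fitted log2 fold change of 5.10 is the largest of the comparison and depends on the prior count. The transcripts named MSTRG made up 30 of the 100 that rose and 15 of the 124 that fell, against 27.2% of those tested, while all others carried Sc4wPfr names. Nearly every call stood for a gene model of its own, with 223 models among the 224 transcripts. Only 27 models had 2 or more transcripts tested. In the 4 of these with a call, all tested transcripts had fold changes of the same sign.

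**Figure D1:**
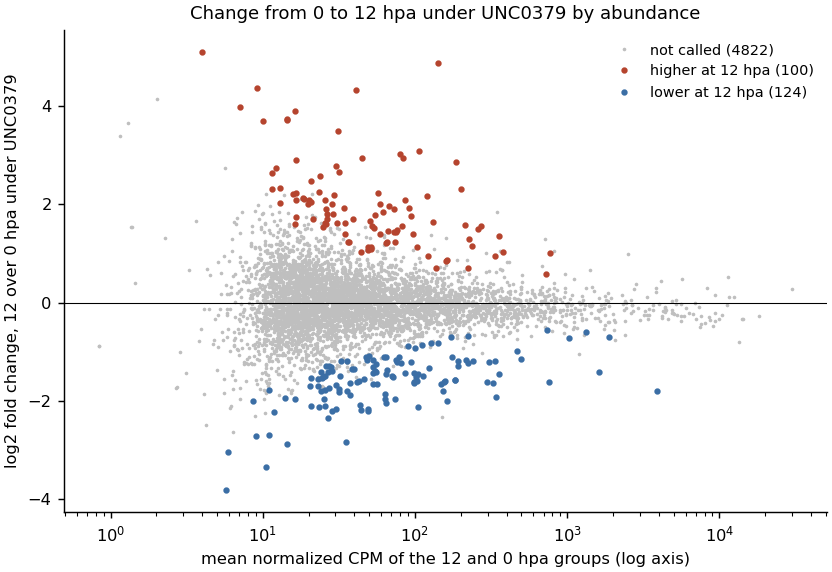
Log2 fold change of 12 over 0 hpa under UNC0379 (vertical axis) against the mean normalized CPM of both groups (horizontal log axis) for 5046 transcripts, with the 100 that rose in red, the 124 that fell in blue and all others in grey. Calls among sparse transcripts lie far from 0, while those of abundant transcripts reach down to 0.56 in size.

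The calls were spread unevenly over abundance. The transcripts were split by mean CPM into 4 classes of equal size. In the class with the lowest mean CPM, up to 17.8, 29 were called (2.3%), and the smallest called change was 1.599 on the log2 scale. In the second class, up to 33.9 CPM, 51 were called (4.04%) with a smallest change of 1.19. In the third, up to 89.7 CPM, 74 were called (5.87%) with a smallest change of 1.03, and in the fourth 70 were called (5.55%) with a smallest change of 0.56. No change as small as 2-fold was called in the first 3 classes, as the plot of change against abundance shows. Rises exceeded falls in the lowest class, with 18 against 11, and were fewer in the highest, with 25 against 45.

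The transcript of the Brachyury protein-like locus (Sc4wPfr_489.2.g16698.t1) rose. Its level was 36.1, 32.1 and 30.04 CPM in the 12 hpa libraries, against 14.4, 10.8 and 5.01 CPM in the 0 hpa libraries. The groups did not overlap, but the levels at 0 hpa rested on 7, 6 and 3 counts. The log2 fold change was 1.70 ± 0.48 (SE, n = 3 each, adjusted p = 0.0324). Replicate 3 of 0 hpa was the lowest of the 6 libraries, and without it the log2 fold change was 1.35, with an adjusted p of 0.209. The call was also lost when any 12 hpa library or replicate 2 of 0 hpa was left out, with adjusted p-values of 0.0629 to 0.104 in these 4 fits. In DMSO the same transcript stood at 20.4, 41.6 and 18.4 CPM at 12 hpa, against 2.5, 2.24 and 1.36 CPM at 0 hpa, a log2 fold change of 3.57 (adjusted p = 0.00024). These DMSO levels at 0 hpa rested on only 2, 1 and 1 counts. The UNC0379 change differed from the DMSO change by -1.86 ± 0.85 (SE) on the log2 scale, with both treatments near the same level at 12 hpa and UNC0379 tips the higher at 0 hpa. That difference did not pass the test (adjusted p = 0.366). Under UNC0379 the group mean was 10.1 CPM at 0 hpa, 28.5 CPM at 3 hpa, 32.1 CPM at 8 hpa, 32.8 CPM at 12 hpa and 8.35 CPM at 24 hpa, so that the level seen at 12 hpa was close to that of 3 hpa. The UNC0379 mean of 24 hpa rested on 1, 9 and 1 counts. In DMSO the group means at the same times were 2.03, 9.64, 14.9, 26.8 and 16.8 CPM. By in situ hybridization, the study reports smaller and weaker Brachyury1 expression under the inhibitor at all times of regeneration. Whether this locus is that gene was not checked.

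For dickkopf-related protein 3 (Sc4wPfr_504.g10351.t1) the libraries of the 2 groups overlapped. The 12 hpa libraries had 12.0, 35.9 and 20.9 CPM, against 28.9, 43.1 and 91.8 CPM in the 0 hpa libraries. The highest by far was replicate 3 of 0 hpa, at 55 counts. The log2 fold change of -1.27 ± 0.39 (SE, n = 3 each) had an adjusted p of 0.0537, just outside the threshold. Without replicate 3 of 0 hpa it was -0.67, with an adjusted p of 0.585, while leaving out replicate 1 or 2 of 0 hpa or replicate 2 of 12 hpa instead brought it past the threshold, at -1.56, -1.44 and -1.71 (adjusted p = 0.0144, 0.0421 and 0.0227). The value of this transcript therefore turned on which library was left out. In DMSO its levels were 89.9, 77.2 and 53.7 CPM at 12 hpa, against 89.99, 85.11 and 88.4 CPM at 0 hpa, a log2 fold change of -0.27 (adjusted p = 0.757). The difference between the treatments in this change was -0.997 ± 0.51 (SE, adjusted p = 0.434), and -0.394 without replicate 3 of UNC0379 0 hpa (adjusted p = 0.808). The UNC0379 levels of 12 hpa lay below every DMSO library of these 2 times. Of the UNC0379 libraries of 0 hpa, replicates 1 and 2 lay below all of those DMSO libraries and replicate 3 above them.

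NHL repeat-containing protein 2 (Sc4wPfr_433.g11169.t1) belongs to a group of proteins named for a repeat that folds into a propeller. It had 36.1, 35.9 and 28.7 CPM in the 12 hpa libraries, against 49.5, 48.5 and 20.03 CPM in the 0 hpa libraries. Here replicate 3 of 0 hpa was the lowest of all 6, and the groups overlapped. The log2 fold change was -0.22 ± 0.45 (SE, n = 3 each, adjusted p = 0.899), and -0.57 without that library (adjusted p = 0.746). No change of this transcript was detected with these libraries.

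**Figure D2:**
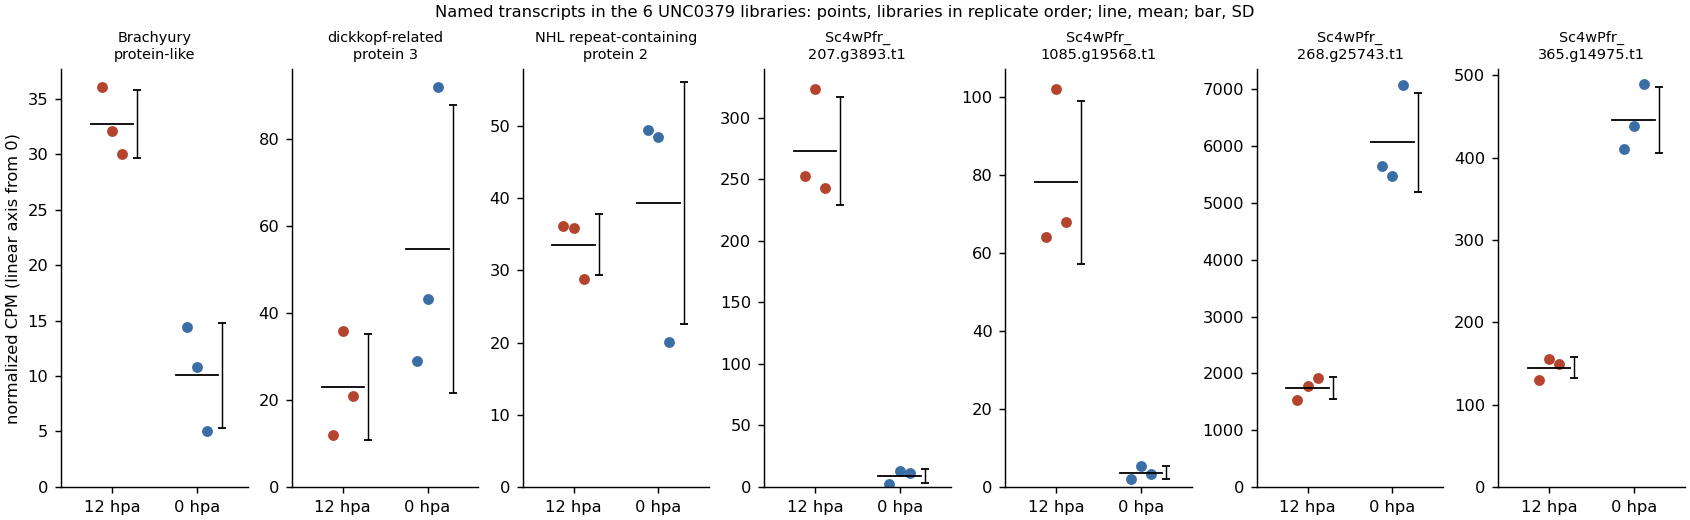
Normalized CPM (vertical axes, linear from 0) of 7 transcripts in the UNC0379 libraries of 12 hpa (left of each panel, red) and 0 hpa (right, blue), with points for the 3 libraries in replicate order, a line for the mean and a bar for the SD. The groups are apart for Brachyury protein-like and for the 4 unnamed transcripts, and overlap for dickkopf-related protein 3 and NHL repeat-containing protein 2.

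The other 13 named loci were not tested for lack of counts. Villin-1, an actin-binding protein, had 7 counts at 12 hpa and 10 at 0 hpa, summed over 3 libraries each. The E3 ubiquitin-protein ligase rnf213-alpha and frizzled5/8, a Wnt receptor, had 1 count in each group. Rap1 GTPase-activating protein 1 had 0 counts at 12 hpa and 2 at 0 hpa. The other 9 loci, the one named N-lysine methyltransferase KMT5A-A among them, had 0 counts in all 6 libraries. For 0 counts the depth allows up to 1.67 CPM over the 12 hpa group and 1.83 CPM over the 0 hpa group, for counting error only and for reads given to a single transcript. It is no limit on the level of these genes. The 8 named loci with 2 or 3 transcripts in the files had 0 to 2 counts each over the 6 libraries, and they include genes that dividing cells use, such as DNA topoisomerase 2-alpha. For each read assigned, 1.07 to 1.203 reads were left out as ambiguous between features, and the part of those reads in the zeros was not tested. Over all gene models, 36.7% of those with 2 or more transcripts and 40.4% of those with 1 had a count in the 6 libraries. A single read is enough for this, far less than the test needs, so the shares do not show how well such models were measured. KMT5A, the enzyme that UNC0379 inhibits, was thus not measured at the locus so named, and the counts hold no check of the treatment.

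Of the transcripts without names, the 2 that rose and the 2 that fell with the smallest adjusted p are given. Sc4wPfr_207.g3893.t1 had 252.6, 323.1 and 242.9 CPM in the 12 hpa libraries, against 2.06, 12.6 and 11.7 CPM in the 0 hpa libraries. Its log2 fold change was 4.87 ± 0.45 (SE, n = 3 each, adjusted p = 7.25e-09), the smallest adjusted p of the comparison. Here replicate 3 of 0 hpa lay with replicate 2, and without it the log2 fold change was 5.10. The group mean under UNC0379 was 8.77 CPM at 0 hpa, 80.8 CPM at 3 hpa, 193.2 CPM at 8 hpa, 272.9 CPM at 12 hpa and 118.6 CPM at 24 hpa, with the highest at 12 hpa. In DMSO the transcript rose as well, to 69.5, 75.2 and 55.2 CPM at 12 hpa, against 8.75, 47.0 and 5.44 CPM at 0 hpa, a log2 fold change of 1.92 (adjusted p = 0.00475). The UNC0379 change was larger by 2.96 ± 0.68 (SE) on the log2 scale (adjusted p = 0.0152). That difference leaned on the fit and on single libraries of 0 hpa. It missed the threshold in limma-voom, at 2.52 (adjusted p = 0.0564). In edgeR with only the libraries compared it also missed, at 3 (adjusted p = 0.0728). Without replicate 2 of DMSO 0 hpa, the high one of its group, it was 1.67 with an adjusted p of 0.218, and without replicate 1 of UNC0379 0 hpa it was 2.53 with an adjusted p of 0.0632.

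Sc4wPfr_1085.g19568.t1 had 64.2, 102.0 and 67.9 CPM in the 12 hpa libraries, against 2.06, 5.39 and 3.34 CPM in the 0 hpa libraries. The 0 hpa levels stood for 1, 3 and 2 counts. The log2 fold change was 4.33 ± 0.47 (SE, n = 3 each, adjusted p = 1.1e-07), and 4.25 without replicate 3 of 0 hpa. In DMSO it was 5.05 (adjusted p = 2.78e-11), with 177.8, 160.3 and 180.9 CPM at 12 hpa, against 2.5, 0 and 10.9 CPM at 0 hpa. The transcript rose in both treatments, and the difference of -0.73 ± 0.85 (SE) did not pass the test (adjusted p = 0.854). The size of that difference was poorly fixed, at -2.19 without replicate 3 of DMSO 0 hpa and -0.296 without replicate 1 of that group, with adjusted p-values of 0.465 to 0.998 over the 12 fits with 1 library left out. Under UNC0379 the group mean was 3.596 CPM at 0 hpa, 50.3 CPM at 3 hpa, 80.6 CPM at 8 hpa, 78.0 CPM at 12 hpa and 129.5 CPM at 24 hpa.

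Sc4wPfr_268.g25743.t1 fell and was also among the most abundant transcripts called. It had 1524, 1780 and 1913 CPM in the 12 hpa libraries, against 5645, 5479 and 7072 CPM in the 0 hpa libraries. The log2 fold change was -1.80 ± 0.18 (SE, n = 3 each, adjusted p = 1.89e-08), and -1.69 without replicate 3 of 0 hpa, the highest library. Sc4wPfr_365.g14975.t1 had 130.3, 154.9 and 148.9 CPM in the 12 hpa libraries, against 410.1, 438.1 and 489.1 CPM in the 0 hpa libraries. Its log2 fold change was -1.62 ± 0.18 (SE, n = 3 each, adjusted p = 1.34e-07), and -1.56 without replicate 3 of 0 hpa. In both transcripts each 12 hpa library lay far below each 0 hpa library. In DMSO both fell too, with log2 fold changes of -0.99 (adjusted p = 0.000221) for Sc4wPfr_268.g25743.t1 and -0.77 (adjusted p = 0.00286) for Sc4wPfr_365.g14975.t1. The differences between the treatments were -0.81 ± 0.25 (SE, adjusted p = 0.0963) for Sc4wPfr_268.g25743.t1 and -0.85 ± 0.24 (SE, adjusted p = 0.0662) for Sc4wPfr_365.g14975.t1. Neither passed the test with all libraries in edgeR, although both did in DESeq2, with adjusted p-values of 0.0228 and 0.00465, and in limma-voom, with 0.0277 and 0.0387. In edgeR both passed when the replicates 3 of UNC0379 0 hpa, UNC0379 24 hpa and DMSO 24 hpa were left out together, at -0.685 (adjusted p = 0.00891) and -0.778 (adjusted p = 0.0149). With replicate 3 of UNC0379 0 hpa alone left out they did not, at -0.689 (adjusted p = 0.204) and -0.784 (adjusted p = 0.134). Under UNC0379 the level of Sc4wPfr_268.g25743.t1 was already 1660 CPM at 3 hpa, and that of Sc4wPfr_365.g14975.t1 was 147.0 CPM, so that for both the 12 hpa mean was close to the 3 hpa mean.

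The other times of the course show when the called transcripts had moved. Since they were chosen for their change at 12 hpa and every change is taken from the same 0 hpa libraries, these values are descriptions. The 100 that rose had a median change from 0 hpa of 1.25, 1.51, 1.601 and 0.57 in log2 CPM at 3, 8, 12 and 24 hpa under UNC0379. In DMSO the same 100 had medians of 0.29, 0.64, 0.65 and 0.12 from their own 0 hpa libraries. The group mean of most was highest at 12 hpa (45 transcripts) or 8 hpa (32), with 17 highest at 24 hpa and 6 at 3 hpa. The 124 that fell had median changes of -1.27, -1.20, -1.39 and -1.45 at 3, 8, 12 and 24 hpa under UNC0379, and of -0.07, -0.29, -0.39 and -0.13 in DMSO. Their median level was therefore down at 3 hpa and stayed down to 24 hpa, where 56 of the 124 were at their lowest, while the rises had receded by then. One of the 3 UNC0379 libraries of 24 hpa held only 146798 assigned reads.

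**Figure D3:**
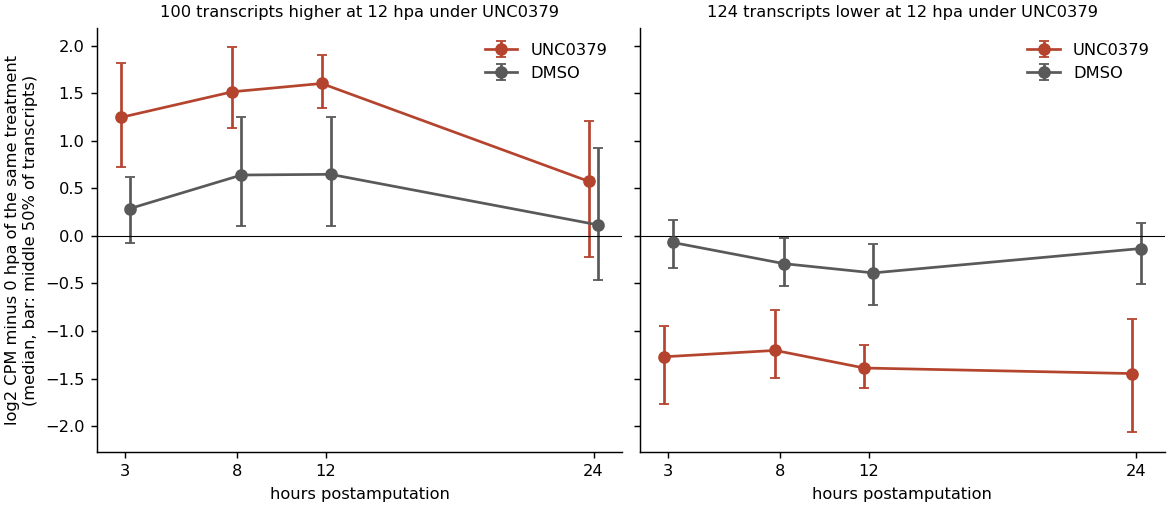
Median change in log2 CPM from 0 hpa of the same treatment (vertical axis) at 3, 8, 12 and 24 hpa (horizontal axis) for the 100 transcripts that rose (left) and the 124 that fell (right) by 12 hpa under UNC0379, with bars for the middle 50% of transcripts, UNC0379 in red and DMSO in grey. The falls under UNC0379 are at -1.27 by 3 hpa, while the DMSO medians stay between -0.39 and -0.07.

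As a share of all assigned reads, the transcripts that rose took 1.23% to 1.29% in the UNC0379 libraries of 12 hpa, against 0.41% to 0.472% in those of 0 hpa. In DMSO the same transcripts took 0.836% to 0.872% at 12 hpa, against 0.623% to 0.677% at 0 hpa. The UNC0379 libraries were thus above the DMSO libraries at 12 hpa and below them at 0 hpa. The transcripts that fell took 1.22% to 1.29% in the UNC0379 libraries of 12 hpa, against 2.65% to 3.14% in those of 0 hpa. In DMSO they took 3.25% to 3.42% at 12 hpa, against 4.55% to 5.03% at 0 hpa. All UNC0379 libraries, those of 0 hpa included, lay below all DMSO libraries of these 2 times in the share taken by the transcripts that fell. The changes by which these transcripts were chosen were measured in the UNC0379 libraries. The choice was not blind to DMSO, since the filter, the normalization and each transcript's spread came from all 30 libraries. With only the 15 UNC0379 libraries fitted, 150 transcripts were called, 81 higher and 69 lower.

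The change from 0 to 12 hpa in DMSO was measured in other libraries. Its test shares the filter and each transcript's estimate of spread with the UNC0379 test, so the 2 sets of calls are not independent. In DMSO 278 of the 5046 transcripts (5.51%) passed the test, 123 higher and 155 lower. Single DMSO libraries moved that count both ways. Without replicates 1, 2 and 3 of 0 hpa in turn it was 126, 347 and 144. Without replicates 1, 2 and 3 of 12 hpa in turn it was 172, 192 and 140. Of the 100 that rose under UNC0379, 79 had a positive and 21 a negative change in DMSO, with a median log2 fold change of 0.75 (middle 50% from 0.13 to 1.57). In DMSO 29 of them were called higher and 0 lower, against 2.44% of all transcripts called higher. Of the 124 that fell, 105 had a negative and 19 a positive change in DMSO, with a median of -0.41 (middle 50% from -0.76 to -0.09). In DMSO 21 of them were called lower, against 3.07% of all transcripts, and 2 were called higher. Over all transcripts tested 2518 changes were positive and 2528 negative in DMSO, with a median near 0. The 50 transcripts called in the same direction in both treatments were 22.3% of the UNC0379 calls and 18% of the DMSO calls.

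**Figure D4:**
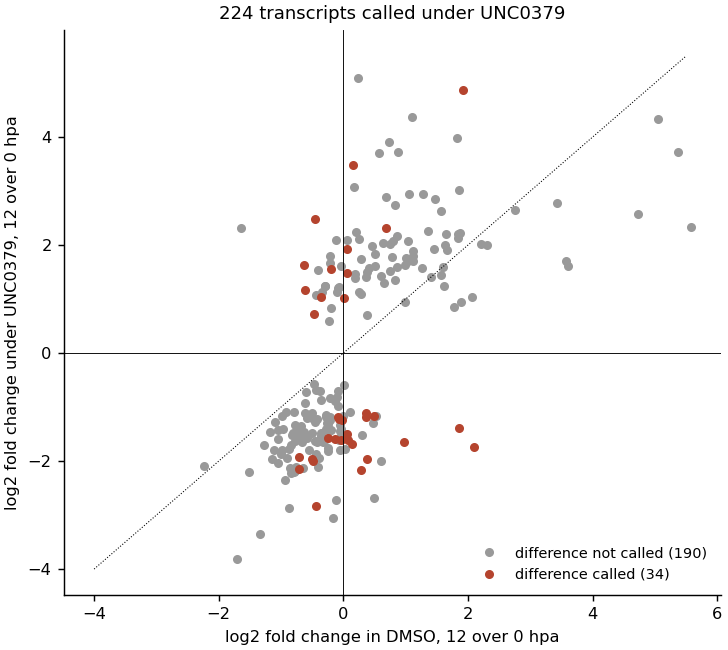
Log2 fold change of 12 over 0 hpa under UNC0379 (vertical axis) against that in DMSO (horizontal axis) for the 224 transcripts called under UNC0379, with the 34 whose change differed between treatments in red and the other 190 in grey. The dotted line marks equal change, and most transcripts lie on the side of a larger change under UNC0379, the measure they were chosen by.

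The test of the difference in the change between UNC0379 and DMSO called 77 transcripts (1.53% of those tested). The count depended on the libraries and the filter. It was 285 when the replicates 3 of UNC0379 0 hpa, UNC0379 24 hpa and DMSO 24 hpa were left out together, 79 without the first of these alone, and 48 with no filter on low counts. Without replicate 2 of DMSO 0 hpa it was 146. It was 43 and 41 without replicates 1 and 3 of UNC0379 12 hpa, 42 and 46 without replicates 1 and 3 of DMSO 0 hpa, and 50, 44 and 43 without replicates 1, 2 and 3 of DMSO 12 hpa. Of the 77, 30 were called under UNC0379 alone, 37 in DMSO alone, 4 in both and 6 in neither. Of the 100 that rose under UNC0379, 12 had a called difference, and in each the UNC0379 change was the higher. Of the 124 that fell, 22 had a called difference, and in each the UNC0379 change was the lower. The side of these differences is not independent of the call, since both use the UNC0379 libraries. For the other 190 transcripts called under UNC0379, the test with all libraries did not call a difference, which does not show the changes to be the same.

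Among the called transcripts, replicate 3 of 0 hpa gave the lowest library median of the 0 hpa group for the transcripts that rose, and the highest for those that fell. For the transcripts that rose, the median log2 CPM was 6.17, 6.09 and 6.10 in the 12 hpa libraries, against 4.83, 4.56 and 4.17 in the 0 hpa libraries. For those that fell, it was 5.08, 5.05 and 5.14 in the 12 hpa libraries, against 6.43, 6.15 and 6.76 in the 0 hpa libraries. On both sides, then, this library lay farthest from 12 hpa among the libraries that had chosen the transcripts.

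With that library left out, 165 of 5356 transcripts tested (3.08%) were called, 66 higher and 99 lower. Of the 224, 144 (64.3%) were called again, 80 were not, and 21 others were added. All 224 kept their direction. The adjusted p of the calls that were lost ran from 0.0541 to 0.592 and was over 0.2 in 18 of them. Leaving out any of the other 5 libraries kept 64.7% to 74.6% of the 224, so that the number lost was not particular to replicate 3 of 0 hpa. What set it apart was the size of the change. Without it, 20 of the 224 had a log2 fold change smaller by over 0.5 and 6 a larger one, against 0 to 3 smaller and 1 to 8 larger without any other library. The median size over the 224 was 1.52 without it and 1.61 with it.

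Each library was then placed on transcripts that had been called without it, on a scale on which 0 is the mean of the rest of its own group and 1 the mean of the other group. Replicate 3 of 0 hpa had a median place of -0.03 over 161 transcripts, but with a middle 50% from -0.28 to 0.32, the widest of the 6. The other libraries of 0 hpa, replicates 1 and 2, had medians of 0.20 and 0.21, and the 12 hpa libraries medians of -0.02, 0.09 and 0.07. Replicate 3 was nearer to the 12 hpa mean than to the rest of 0 hpa in 19 of the 161 transcripts (11.8%). Replicates 1 and 2 were so in 15.9% and 17.5%, and the 12 hpa libraries were nearer to the 0 hpa mean in 5.33% to 7.64%. On transcripts it had no part in choosing, the library that stood apart was thus placed with 0 hpa on balance, and more variably than the others.

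**Figure D5:**
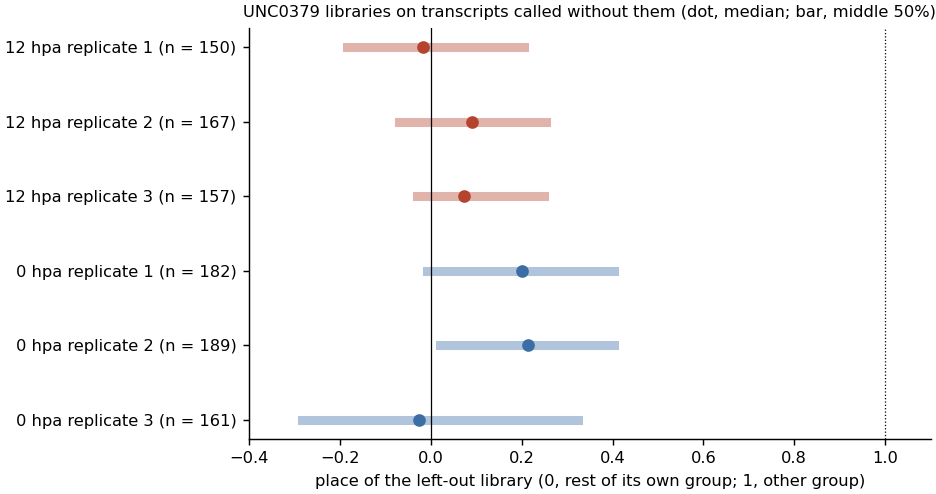
Place of each UNC0379 library (horizontal axis, 0 for the mean of the other libraries of its group and 1 for the mean of the other group) on the transcripts called without it, with a dot for the median, a bar for the middle 50% of transcripts and n for their number. All 6 medians lie between -0.03 and 0.21, and replicate 3 of 0 hpa has the widest bar.

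The calls that did not depend on any single one of the 6 libraries compared numbered 110. They were made with all libraries and again in each of the 6 fits with 1 of these left out. The other 24 libraries that share the fit were not left out in turn for this count. The 110 were 44 that rose and 66 that fell. The 44 had a median log2 fold change of 2.18 (1.02 to 4.87), and median levels of 98.7 CPM at 12 hpa and 23.0 CPM at 0 hpa. The 66 had a median log2 fold change of -1.604 (-3.34 to -0.99), and median levels of 43.3 CPM at 12 hpa and 115.9 CPM at 0 hpa. All 4 unnamed transcripts described above were among the 110, and Brachyury protein-like was not. In DMSO 17 of the 44 were called higher and 17 of the 66 were called lower, against 2.44% and 3.07% of all transcripts tested. The DMSO test shares its estimate of spread with the UNC0379 test. The difference between treatments was called for 9 of the 44 and 18 of the 66, against 1.53% of all, and it shares the UNC0379 libraries that chose them.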

How the data were processed

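The authors deposited unnormalized counts of QuantSeq 3′ reads for each transcript in a separate table for every library. Trimmomatic, HISAT2 and HTSeq are named in the submitters' processing notes. Their versions, the build and annotation, and how strand was treated are not given in the sources used, so that overlapping and antisense transcripts may share reads. The 5 HTSeq summary lines were left out of library sizes and tests. Low counts were removed by filterByExpr over the 10 groups, and the rest was TMM-normalized (factors 0.904 to 1.11) and fitted with edgeR 4.0.16 in R 4.3.3, by robust quasi-likelihood over all 30 libraries, with a biological coefficient of variation of 22.6%. The tested transcripts held 97.4% of the assigned reads of the 6 libraries. SE is the log2 fold change over the root of its F statistic. Log2 CPM used a prior count of 2. With 3 libraries against 3, an exact test of 1 value cannot go below 0.1. No molecular identifiers are named, so limits cover counting error only. Named were loci that the study's panels pair with 1 identifier and 1 name, plus, by smallest adjusted p, 2 unnamed transcripts in each direction. Members, lists, tests and alternatives were chosen with earlier results of these data known. The counts of shifts by over 0.5, of calls made in every fit and the tests of the named differences under each alternative were chosen after seeing the data. Alternatives used DESeq2 1.42.0 and limma 3.58.1. The scripts were tested on simulated data. Figures used matplotlib 3.10.9.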

Additional observations from a re-analysis of the deposited data

Results flagged for a closer look

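The change of Sc4wPfr_207.g3893.t1 from 0 to 12 hpa differed between UNC0379 and DMSO by 2.96 on the log2 scale in the test of the difference, with the values given in the report. Over its 21 alternatives the difference ran from 1.67 to 3.5, with adjusted p-values from 7e-04 to 0.218, and it did not pass in 4 of them. Across all transcripts, 77 differed between the treatments in this change.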

How the results depend on the processing

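The count of 224 under UNC0379 was 152 to 189 with 1 library left out, and 363 with the limits of the study, an unadjusted p under 0.01 and a log2 change over 0.58. It was 150 to 277 in the other 11 alternatives. In DMSO, 278 became 126 to 347 with 1 library left out. It was 599 with 3 libraries left out together, the replicates 3 of UNC0379 0 hpa, UNC0379 24 hpa and DMSO 24 hpa. That of UNC0379 24 hpa had 146798 assigned reads, and that of DMSO 24 hpa had 98.2% of its reads not aligned. How far the 24 hpa libraries lay from their own groups in transcript levels was not measured. The 77 differences became 41 to 146 with 1 library left out, 48 with no filter on low counts, 285 without those 3 libraries and 248 with the limits of the study. The labels do not say what a replicate number shares. Under UNC0379, replicate 3 had the lowest share of reads not aligned at both times, 26.1% at 12 hpa and 36.7% at 0 hpa. In DMSO it was the lowest at 12 hpa (33.7%), but at 0 hpa replicate 1 was (16.5%). Same-numbered libraries of 12 and 0 hpa under UNC0379 deviated together only weakly (r = 0.047, 0.054 and 0.062), although each correlated best with its own number. In DMSO the values were 0.16, 0.15 and -0.042. Since not all of them were over 0.1, the libraries were not treated as paired. With the replicate number as a block 244 transcripts were called, 223 of them among the 224. The 4 unnamed transcripts passed in all 16 alternatives. Brachyury protein-like missed the threshold in 9 of 15, with adjusted p-values from 0.0142 to 0.209, and dickkopf-related protein 3 passed in 3 of 16. The difference between treatments for NHL repeat-containing protein 2 ran from -0.519 to 0.0046 with 1 library left out and had the other sign only without UNC0379 0 hpa replicate 2. The causes were not tested.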
